A study of Homo sapiens with 4 samples.

Results

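The genes described here encode the pore-forming and accessory subunits of potassium channels. They were chosen by symbol, as protein-coding genes whose name is KCN followed by a subfamily letter or letters and a number, and 95 of the 35606 genes in the count table met that rule. RNA was measured in K562, an established human leukaemia line with erythroid features, in 4 poly(A)-selected libraries. The JAZF1-SUZ12 group, of 2 libraries, came from cells expressing the fusion of JAZF1 with the Polycomb subunit SUZ12 that is found in endometrial stromal sarcoma, and the mock group, also of 2 libraries, came from cells labelled as mock. Both groups share the K562 background. How the fusion was delivered, what the mock cells received, the time after delivery, and whether the cells were a pool or a clone are not given in the labels, and nothing says that libraries 1 and 2 of a group were separate cultures. P-values therefore measure only the spread between these libraries, which may be technical.

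Potassium channels let potassium leave or enter a cell down its electrochemical gradient and so set the membrane potential. The voltage-gated family opens on depolarisation, calcium-activated channels open as internal calcium rises, inward rectifiers pass current near the resting potential, and two-pore-domain channels carry a background leak. Accessory subunits change the gating, surface delivery or drug sensitivity of the pores. In red cells the calcium-activated channel KCNN4 carries the Gardos current that dehydrates the cell, and KCNH2, the hERG channel of cardiac repolarisation, is known from leukaemia lines. Many channel genes are silent in blood cells and are active mainly in neurons, muscle and epithelia.

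The libraries held between 17260936 and 24423028 estimated counts. JAZF1 and SUZ12, examined as a check of the labels, had log2 fold changes of 5.05 and 1.01 (adjusted p = 1.07e-10 and 1.15e-09 by the quasi-likelihood test of edgeR). The source label gives uterus, so cell markers were examined. All 12 erythroid markers were tested, and their summed level lay between 12698 and 12992 counts per 1000000 library counts (CPM) in mock and between 14671 and 14862 CPM in JAZF1-SUZ12 libraries, with 4 called higher. The 10 stromal markers summed to between 16.2 and 17.3 CPM in mock against between 33.8 and 35.9 CPM in JAZF1-SUZ12 libraries. Of the 5 stromal markers tested, COL1A1 was the 1 called higher, and LUM was at 0 counts in every library. The 10 neuronal markers summed to between 58.7 and 59.0 CPM in mock against between 86.6 and 92.3 CPM in JAZF1-SUZ12 libraries. Only SYP and TUBB3 were tested among them. SYP, at 38.8 and 39.9 CPM in mock and 69.6 and 73.9 CPM in JAZF1-SUZ12 libraries, was called higher. TUBB3, at 19.2 and 18.9 CPM in mock and 16.3 and 17.4 CPM in JAZF1-SUZ12 libraries, was not called, while STMN2, NEFL and ELAVL4 were at 0 in every library. The 8 muscle markers summed to between 79.3 and 83.0 CPM in mock against between 96.6 and 111.8 CPM in JAZF1-SUZ12 libraries, with 3 called higher, ACTA2, DES and MYH6. The part of these shifts in the results on channels was not tested. In bulk RNA, fewer cells with a transcript and less transcript per cell cannot be told apart.

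Of the 95 potassium channel genes, 13 were higher and 1 was lower in JAZF1-SUZ12 libraries at an adjusted p under 0.05. Enough counts for a test were present for 49 genes, and the other 46 did not pass the filter on low counts, among them 26 with at most 3 counts in every library and 14 with 0 throughout. The background among all 14750 tested genes was 24.7%, made up of 13.3% higher and 11.4% lower. Among the 49 tested channel genes 28.6% were called in either direction and 26.5% were called higher. Of the 49 tested, 9 (18.4%) were called at least 2-fold higher, against 5.55% of all genes tested. The decrease was under 2-fold, and 0.122% of all genes tested were called at least 2-fold lower. The median log2 fold change of the 49 was 0.23, against 0.0032 over all genes tested, and 35 of them had a fitted value above 0. Leaving out mock replicate 2, which also changed the genes tested, raised the channel median to 0.42. This was the highest of the fits that left out a library, and the lowest was under 0.23.

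These shares have to be read against expression level, because most channel genes were at low counts. Of the channel genes called at least 2-fold higher, all but KCNH3 and KCNC4 had a mean under 50 counts. The share called at least 2-fold higher was not computed by level. Among genes with a mean under 50 counts, 15.6% of all tested were called higher, with a median log2 fold change of 0.41, and 7 of 25 channel genes were, with a median of 0.53. From 50 to 200 counts, 21.5% of all genes and 3 of 13 channel genes were called higher. There the median of the channel genes, 0.17, was under that of all genes, 0.20. At 200 counts or more the medians were 0.12 for channel genes and -0.047 for all genes. At 200 counts or more, 10.7% of all genes and 3 of 11 channel genes were called higher, and 17.1% of all genes and 1 of 11 channel genes were called lower. The filter asks for enough counts in 2 libraries. For 2 channel genes, KCNJ12 and KCNK15, both JAZF1-SUZ12 libraries and no mock library reached its level. KCNH3, KCNG1, KCNS3 and KCNMB4, also called higher, reached it in only 1 mock library. They too were tested only because JAZF1-SUZ12 libraries reached it.

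**Figure D1:**
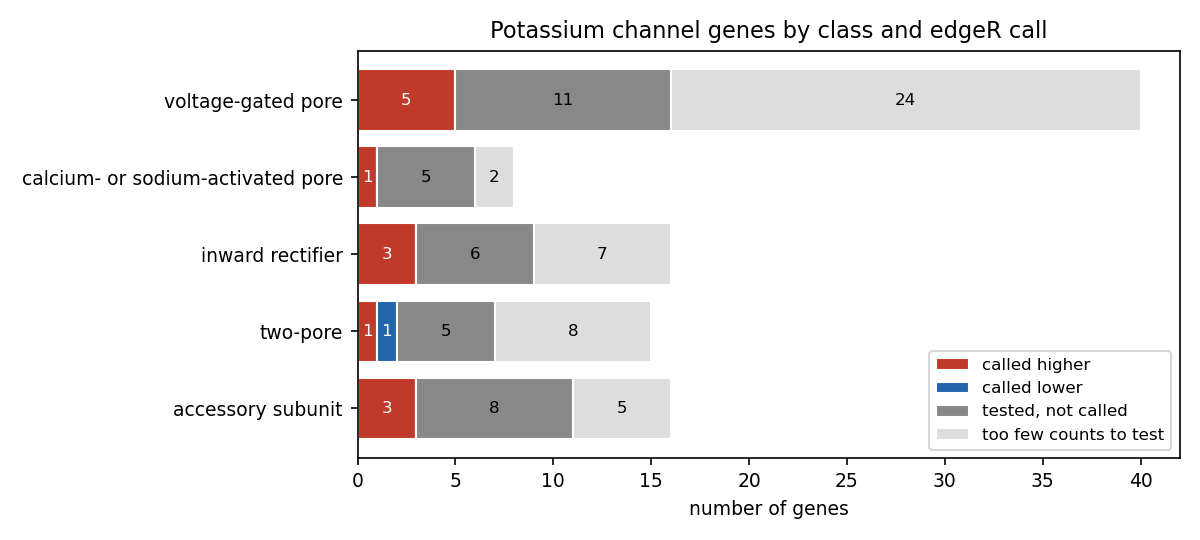
Number of potassium channel genes (horizontal axis) in each class, split by edgeR call at an adjusted p under 0.05 and by whether the gene had enough counts to test. The voltage-gated class has 40 genes, 24 of them with too few counts, and the 1 gene called lower is a two-pore channel.

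The groups did not overlap in CPM for 30 of the 49 tested channel genes, 23 higher and 7 lower in JAZF1-SUZ12 libraries. Over all genes tested, 33.8% were without overlap and higher and 27.2% without overlap and lower. The remaining 19 channel genes overlapped.

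The DNA just before the start of several called genes is shown because it differed widely in CpG content among members that moved the same way. CpG-rich starts are the typical binding sites of Polycomb complexes in mammals. RefSeq promoters on GRCh38.p14 were matched by symbol for 71 of the 95 genes, and for 59 of these the bases after the start lay in a GENCODE transcript of the gene. The 4 below are called genes with such a start, and KCNN1, which is not printed, is the only other. Each printed window is the 250 bases before the RefSeq start, 5′ to 3′ on the gene's strand, with every CG dinucleotide in capitals.
KCNAB1, chr3:156120298-156120547, plus strand: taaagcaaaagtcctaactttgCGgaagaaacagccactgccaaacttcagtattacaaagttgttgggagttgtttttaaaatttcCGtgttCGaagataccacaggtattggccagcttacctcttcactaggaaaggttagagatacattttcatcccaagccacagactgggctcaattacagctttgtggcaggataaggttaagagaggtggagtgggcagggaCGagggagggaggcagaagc
KCNS3, chr2:17877597-17877846, plus strand: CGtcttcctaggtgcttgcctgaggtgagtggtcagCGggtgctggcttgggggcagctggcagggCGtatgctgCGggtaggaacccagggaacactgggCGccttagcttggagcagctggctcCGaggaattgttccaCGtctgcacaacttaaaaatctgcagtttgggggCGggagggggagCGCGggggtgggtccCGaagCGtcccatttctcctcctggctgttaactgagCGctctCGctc
KCNAB2, chr1:5992426-5992675, plus strand: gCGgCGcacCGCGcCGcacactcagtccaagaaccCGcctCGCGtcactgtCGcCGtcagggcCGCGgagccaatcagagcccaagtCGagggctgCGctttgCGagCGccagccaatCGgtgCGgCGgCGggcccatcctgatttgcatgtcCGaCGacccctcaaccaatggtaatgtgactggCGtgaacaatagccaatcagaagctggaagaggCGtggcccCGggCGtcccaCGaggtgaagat
KCNK5, chr6:39229476-39229725, minus strand: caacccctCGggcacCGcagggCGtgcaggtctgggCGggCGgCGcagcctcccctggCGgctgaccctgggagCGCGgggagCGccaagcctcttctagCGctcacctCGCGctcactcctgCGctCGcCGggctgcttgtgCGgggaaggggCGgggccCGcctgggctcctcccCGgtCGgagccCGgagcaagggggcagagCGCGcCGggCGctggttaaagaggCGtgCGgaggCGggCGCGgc

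The RefSeq start is not always the outermost start in GENCODE. It lies 82847 bases inside the KCNAB1 gene span given below and 1210 bases inside that of KCNAB2, so these windows precede internal starts, whereas the KCNS3 window ends where the GENCODE gene begins. Which start the cells used was not tested.

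The KCNAB1 window held 4 CG dinucleotides, the KCNS3 window 14 and the KCNAB2 window 27, and all 3 genes were called higher. The window of KCNN1, also called higher, held 24. The KCNK5 window, before the 1 gene called lower, held 31. Across 15843 protein-coding promoters of the same length the median was 17, with quartiles of 6 and 26, and across the 71 channel genes it was 15. Among the 6 genes called higher with a promoter in the table the median was 19, and among the 28 tested and not called it was 14. KCNH3, KCNG1, KCNJ11, KCNJ12, KCNK15 and KCNMB4 had no entry. On either strand, with no overlap between motifs, the letters CCAAT were found in 3 of the 6 and in 34.5% of all windows. AGATAA and TATAAA were in none of the 6, against 6.84% and 9.23% of all windows. With only 6 windows these shares cannot be told apart. The 6 include KCNC4 and KCNJ4, whose bases after the start were not found in a GENCODE transcript of the gene.

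Among the pore genes of voltage-gated channels, 5 of 16 tested were called higher and 11 were not called. The class holds 40 genes. KCNH3 (ENSG00000135519; GRCh38 chromosome 12, 49539157 to 49558308, plus strand), which encodes a slowly gating channel of the EAG-like group best known from forebrain neurons, had 7 and 13 counts in mock against 87 and 121 in JAZF1-SUZ12 libraries. Every JAZF1-SUZ12 value was several times every mock value. Its level rose from 0.476 ± 0.190 to 5.0 ± 0.0608 CPM (n = 2 per group, SD; log2 fold change 3.35, standard error 0.35, adjusted p = 4.48e-06 by edgeR). KCNH3 had the smallest p-value of the 49 tested genes. Its exons overlap those of MCRS1 on the opposite strand, and MCRS1 was not called (log2 fold change -0.093, adjusted p = 0.303 by edgeR).

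KCNS3 and KCNG1 encode electrically silent subunits, which form no channel alone and change the gating of the voltage-gated pores they join. KCNS3 (ENSG00000170745; chromosome 2, 17877847 to 18361616, plus strand) had 9 and 12 counts in mock and 52 and 47 in JAZF1-SUZ12 libraries. It rose by 2.25 on the log2 scale (standard error 0.45, adjusted p = 0.00176 by edgeR). KCNG1 (ENSG00000026559; chromosome 20, 51003656 to 51023129, minus strand) had 15 and 10 counts in mock and 44 and 54 in JAZF1-SUZ12 libraries (log2 fold change 1.95, standard error 0.42, adjusted p = 0.00314 by edgeR). The groups were well apart for both. The other silent subunit genes with enough counts, KCNG4 and KCNV1, were not called (edgeR, adjusted p = 0.992 and 0.216).

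KCNC4 (ENSG00000116396; chromosome 1, 110211343 to 110283100, plus strand), which encodes a Shaw-type channel of fast-spiking neurons, had 121 and 81 counts in mock and 193 and 255 in JAZF1-SUZ12 libraries. It rose from 4.86 ± 1.5 to 10.8 ± 0.524 CPM (n = 2 per group, SD; log2 fold change 1.13, standard error 0.19, adjusted p = 0.000496 by edgeR).

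KCNH2 (ENSG00000055118; chromosome 7, 150944961 to 150978315, minus strand) was by far the most abundant channel gene. It took between 51.3% and 57.9% of all counts over the 95 genes in a library. Per kilobase of the longest coding transcript its level was 102.8 CPM in mock, followed by KCNK5 at 21.5, KCNK1 at 9.38 and KCNN4 at 7.45 CPM per kilobase. KCNH2 was at 424 and 457 CPM in mock and at 420.4 and 388 CPM in JAZF1-SUZ12 libraries. The lower mock library lay just above the higher JAZF1-SUZ12 library. Its log2 fold change, -0.15 (standard error 0.05), narrowly missed the threshold (adjusted p = 0.0514 by edgeR). It passed with DESeq2 size factors (adjusted p = 0.0472), DESeq2 (adjusted p = 0.0499), limma-voom (adjusted p = 0.0344) and no filter (adjusted p = 0.00314). With a block for the replicate number it passed as well. It depended on the library, with -0.22 without JAZF1-SUZ12 replicate 1 (adjusted p = 0.000126), -0.077 without JAZF1-SUZ12 replicate 2 (adjusted p = 0.319) and -0.21 without mock replicate 1 (adjusted p = 0.0125).

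Among the KCNQ genes, whose products carry the M-current of neurons and slow cardiac repolarisation, KCNQ1 had 2 counts in each mock library and 5 and 12 in the JAZF1-SUZ12 libraries, a ratio of 4.26 with a 95% counting interval from 1.39 to 17.4, and it lay under the filter on low counts. It was not called without a filter (edgeR, adjusted p = 0.323), where 9.17% of 22778 genes were called higher and 8.68% lower. KCNQ5 had 183 and 188 counts in mock and 118 and 163 in JAZF1-SUZ12 libraries and was not called (edgeR, adjusted p = 0.0642). The KCNQ5 log2 fold change was -0.42 here and had the other sign, 0.15, in the authors' deposited table described below. The Shaker-type KCNA genes were nearly silent, with at most 3 counts in every library for 7 of 8.

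Of the calcium- or sodium-activated pore genes, 1 of 6 tested was called higher and 5 were not called. KCNN1 (ENSG00000105642; chromosome 19, 17951293 to 18000080, plus strand), a small-conductance channel gene of the central nervous system, had 265 and 320 counts in mock and 361 and 475 in JAZF1-SUZ12 libraries. It rose from 13.99 ± 1.46 to 20.2 ± 1.04 CPM (n = 2 per group, SD; log2 fold change 0.50, standard error 0.11, adjusted p = 0.00431 by edgeR). The red-cell gene KCNN4 was at 354 and 343 counts in mock and 254 and 377 in JAZF1-SUZ12 libraries. Its CPM values did not overlap, 16.7 ± 0.855 against 15.1 ± 0.510 (n = 2 per group, SD), and it was not called (log2 fold change -0.17, adjusted p = 0.297 by edgeR). KCNMA1, the pore of the large-conductance channel, had between 0 and 5 counts per library and was not tested.

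Among inward rectifiers, 3 of 9 tested genes were called higher and 6 were not called, out of 16. KCNJ12 (ENSG00000184185; chromosome 17, 21376197 to 21419872, plus strand), a strong rectifier of heart and skeletal muscle, had 6 and 4 counts in mock and 29 and 44 in JAZF1-SUZ12 libraries. It rose by 2.81 on the log2 scale (standard error 0.54, adjusted p = 0.0013 by edgeR). KCNJ12 has a near-identical copy, KCNJ18, listed at 0 in every library, so how reads were divided between them is uncertain. KCNJ4 (ENSG00000168135; chromosome 22, 38426327 to 38455199, minus strand), a strong rectifier of the forebrain, had 21 and 27 counts in mock and 66 and 69 in JAZF1-SUZ12 libraries (log2 fold change 1.5, standard error 0.34, adjusted p = 0.00431 by edgeR).

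KCNJ11 (ENSG00000187486; chromosome 11, 17385859 to 17389331, minus strand) encodes the pore of the ATP-sensitive channel that couples metabolism to insulin release. It had 115 and 110 counts in mock and 150 and 226 in JAZF1-SUZ12 libraries. It rose from 5.40 ± 0.325 to 8.97 ± 0.398 CPM (n = 2 per group, SD; log2 fold change 0.71, adjusted p = 0.00528 by edgeR). Its sulfonylurea receptor ABCC8, whose gene lies 3167 bases away, had 20 and 34 counts in mock and 27 and 42 in JAZF1-SUZ12 libraries and was not called (log2 fold change 0.33, adjusted p = 0.603 by edgeR). The other ATP-sensitive pore gene, KCNJ8, and its partner ABCC9 were not called (edgeR, adjusted p = 0.684 and 0.324). KCNJ15, the inward rectifier with the highest mean count, was at 13.02 ± 0.708 CPM in mock against 15.8 ± 0.918 CPM in JAZF1-SUZ12 libraries (n = 2 per group, SD; edgeR, adjusted p = 0.127). KCNJ10, an astrocyte and kidney channel gene, had 1 and 2 counts in mock and 9 in each JAZF1-SUZ12 library, a ratio of 6.01 with a 95% counting interval from 1.75 to 31.8 (edgeR without a filter, adjusted p = 0.178).

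**Figure D2:**
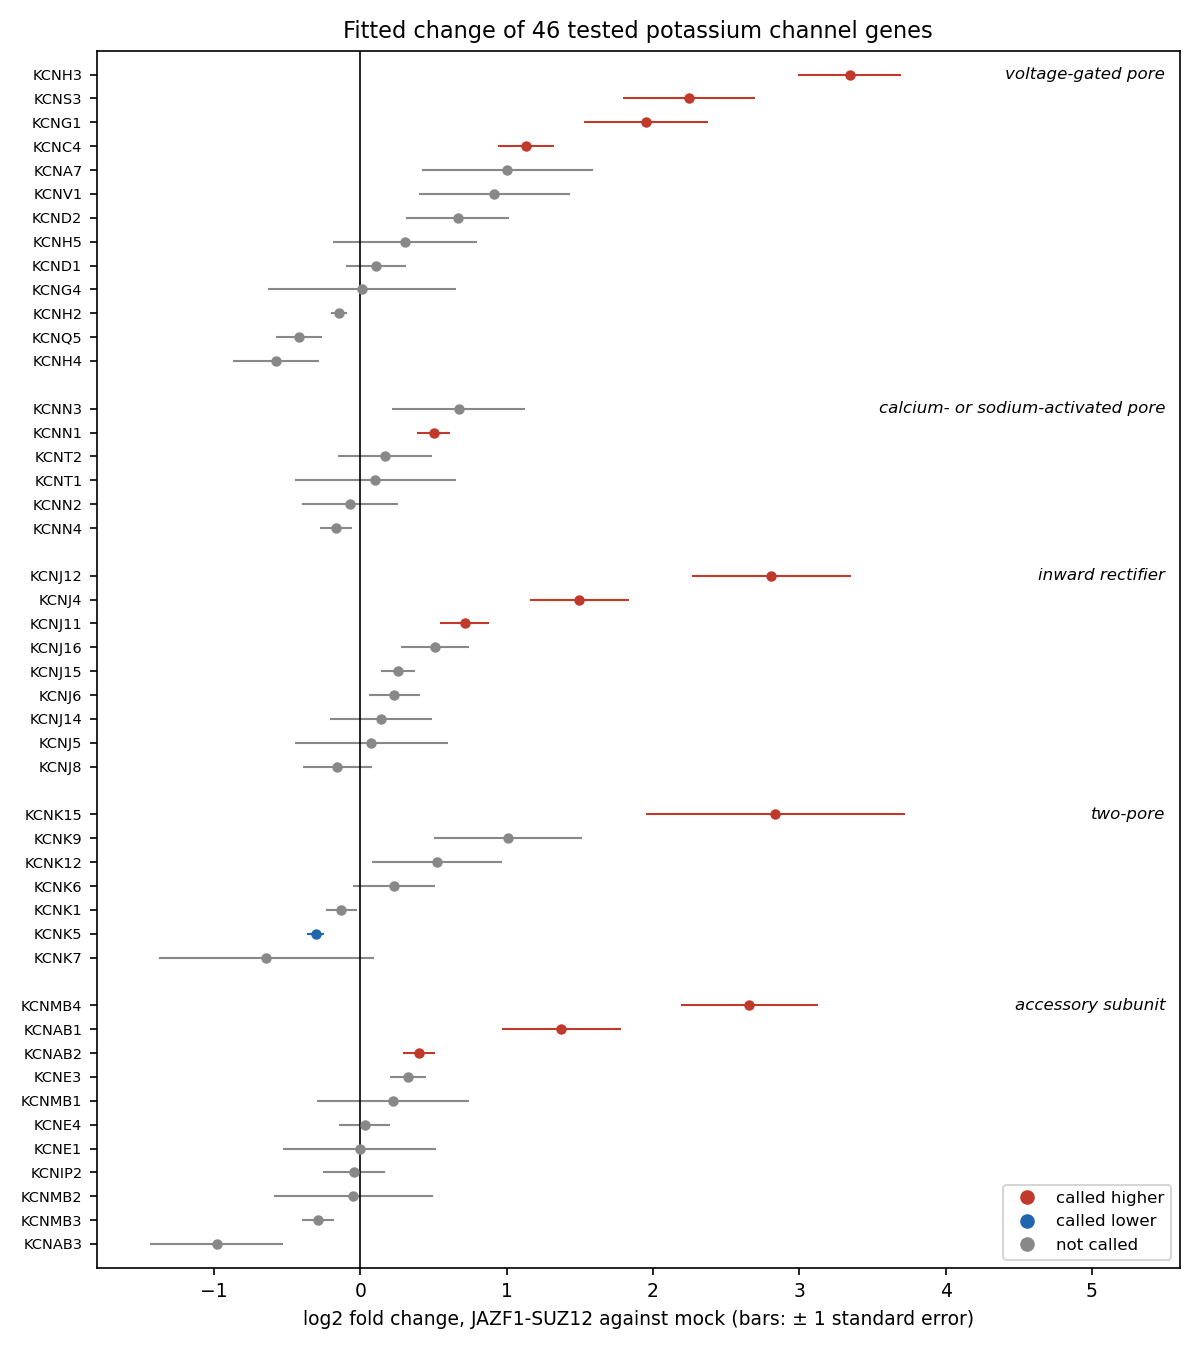
Fitted log2 fold change, JAZF1-SUZ12 relative to mock (horizontal axis), with its standard error for 46 of the 49 tested genes, grouped by class and ordered within it. Red points are the 12 genes shown that were called higher and the blue point is KCNK5, at -0.31. Fitted values run from -0.98 for KCNAB3 to 3.35 for KCNH3, and wide bars mark genes with few counts.

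Of the two-pore channel genes, 1 was called higher, 1 was called lower and 5 were not called, out of 7 tested and 15 in all. KCNK5 (ENSG00000164626; chromosome 6, 39188973 to 39229450, minus strand), an acid-sensitive leak channel gene known from kidney and lymphocytes, had 1660 and 1709 counts in mock and 1147 and 1617 in JAZF1-SUZ12 libraries. Scaled for depth, the libraries of a group were almost alike, at 81.2 and 80.2 CPM in mock against 66.5 and 66.2 CPM in JAZF1-SUZ12 libraries. KCNK5 fell by 0.31 on the log2 scale (standard error 0.06, adjusted p = 0.00112 by edgeR). It passed in each of the 4 fits that left out a library, with values from -0.32 to -0.29. KCNK15, a member that carries no measurable current alone, had 0 and 4 counts in mock and 10 and 21 in JAZF1-SUZ12 libraries (log2 fold change 2.84, adjusted p = 0.0281 by edgeR). Its call was lost with DESeq2 (adjusted p = 0.0959) and without mock replicate 1 (adjusted p = 0.225), where its log2 fold change was 1.89, and it had too few counts to test without JAZF1-SUZ12 replicate 2. Without mock replicate 2 the KCNK15 call held, but the mock group was then at 0 counts and the fitted 6.92 depends on the prior count and is no bound. KCNK15 shares exons with RIMS4 and an antisense gene on the other strand, and RIMS4 was not called (edgeR, adjusted p = 0.404). KCNK1, a widely expressed leak channel gene, was at 20.3 ± 2.02 CPM in mock against 18.8 ± 0.304 CPM in JAZF1-SUZ12 libraries (n = 2 per group, SD; edgeR, adjusted p = 0.409). KCNK2, a stretch-sensitive channel gene, had 0 and 1 counts in mock and 4 and 8 in JAZF1-SUZ12 libraries, a ratio of 12.02 with a 95% counting interval from 1.78 to 514 (edgeR without a filter, adjusted p = 0.229).

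Among accessory subunits, 3 of 11 tested genes were called higher and 8 were not called, out of 16. KCNMB4 (ENSG00000135643; chromosome 12, 70366276 to 70434292, plus strand), the neuronal beta subunit of the large-conductance channel, had 4 and 15 counts in mock and 46 and 78 in JAZF1-SUZ12 libraries. It rose from 0.450 ± 0.360 to 2.93 ± 0.374 CPM (n = 2 per group, SD; log2 fold change 2.66, standard error 0.47, adjusted p = 0.000639 by edgeR). The size of the change rested on the mock library used, with 2.02 without mock replicate 1 and 3.84 without mock replicate 2. The other beta subunit genes were not called, though KCNMB3 was called lower with a block for the replicate number. KCNMB3, the accessory gene with the highest mean count, was at 21.4 ± 2.43 CPM in mock against 17.7 ± 1.70 CPM in JAZF1-SUZ12 libraries (n = 2 per group, SD; log2 fold change -0.29, adjusted p = 0.0633 by edgeR). KCNMB3 passed without a filter (adjusted p = 0.0357), without JAZF1-SUZ12 replicate 2 (adjusted p = 0.0266) and without mock replicate 1 (adjusted p = 0.0185), and its exons overlap those of PIK3CA on the opposite strand.

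KCNAB1, KCNAB2 and KCNAB3 encode the cytoplasmic beta subunits of Shaker-type pores. KCNAB1 (ENSG00000169282; chromosome 3, 156037701 to 156539138, plus strand) had 14 and 19 counts in mock and 36 and 51 in JAZF1-SUZ12 libraries (log2 fold change 1.37, adjusted p = 0.021 by edgeR). KCNAB2 (ENSG00000069424; chromosome 1, 5991466 to 6101193, plus strand) was at 13.5 and 13.4 CPM in mock against 18.0 and 18.2 CPM in JAZF1-SUZ12 libraries (log2 fold change 0.40, adjusted p = 0.0129 by edgeR). KCNAB3 had 44 and 33 counts in mock and 9 and 32 in JAZF1-SUZ12 libraries and was not called (log2 fold change -0.98, adjusted p = 0.13 by edgeR). Both calls were lost with DESeq2 (adjusted p = 0.0737 for KCNAB1 and 0.0791 for KCNAB2). KCNAB1 did not pass without JAZF1-SUZ12 replicate 1, JAZF1-SUZ12 replicate 2 or mock replicate 1 (adjusted p = 0.0752, 0.119 and 0.108), and KCNAB2 did not pass without mock replicate 2 (adjusted p = 0.0505). KCNE1, KCNE3, KCNE4 and KCNIP2, the tested genes for small membrane subunits and calcium-binding partners, were not called (edgeR, adjusted p = 0.997, 0.0642, 0.925 and 0.915). KCNIP3 was at 0 in both mock libraries against 3 and 13 counts with JAZF1-SUZ12 (edgeR without a filter, adjusted p = 0.0320). Its mean JAZF1-SUZ12 level was 2.46 times a floor of 3 counts per library. That value rests mostly on the library with 13 counts, leaves out counting error and is no lower bound. KCNIP3, with only 3 counts in a JAZF1-SUZ12 library, is described after its values were seen, since it did not exceed 3 counts in both JAZF1-SUZ12 libraries. KCNQ1, KCNJ10 and KCNK2 were among 4 of 95 members with at most 3 counts in both mock and over 3 in both JAZF1-SUZ12 libraries. This pattern was found in 1.1% of the whole table, which includes genes too low to test. These members were named by that pattern, so ratios above 1 were fixed by the choice. Their intervals are therefore no support for a rise. The reverse pattern, found in 0.225% of the table, was seen in no member. A pattern that rare can easily be absent from 95 genes, so its absence says little.

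**Figure D3:**
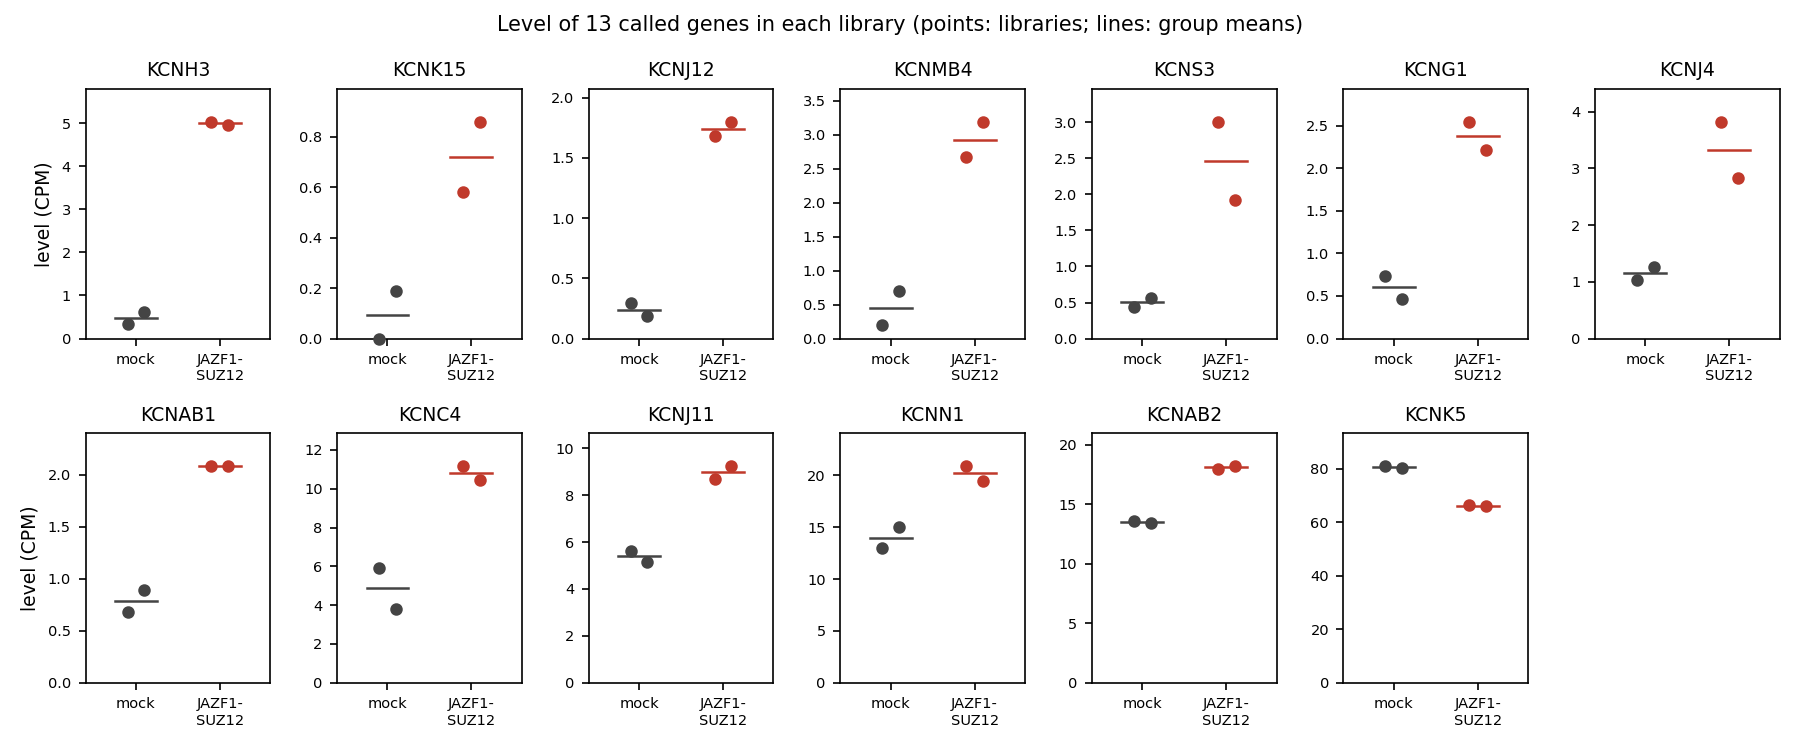
Level in CPM (vertical axis, from 0, with its own scale in each panel) of 13 of the 14 called genes in each mock and JAZF1-SUZ12 library, with group means as lines. In every panel the points of the groups are apart, and KCNK5 alone is lower in the JAZF1-SUZ12 libraries, at 66.5 and 66.2 CPM against 81.2 and 80.2 CPM.

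The authors' deposited table, made from the same libraries, gave adjusted p-values for 56 of the 95 genes and called 5, of which 4 were higher and 1 lower. Over the 15895 genes with an adjusted p there, 8.5% were called, 4.93% higher and 3.57% lower. KCNMB4, KCNJ12, KCNJ11 and KCNK5 were called in both analyses. The other 10 genes called here were not called there. All 13 genes called higher had a log2 fold change above 0 in the authors' deposited table as well, and 41 of the 49 tested genes had the same sign. Sizes differed for KCNH3, at 2.01 in the authors' deposited table (adjusted p = 0.058), and for KCNC4, at 0.45 there (adjusted p = 0.881). KCNT1, a sodium-activated channel gene of neurons, had a log2 fold change of 5.23 in the authors' deposited table (adjusted p = 0.099). From the counts it was 0.10, with 11 and 16 counts in mock and 14 and 15 in JAZF1-SUZ12 libraries (edgeR, adjusted p = 0.917).

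**Figure D4:**
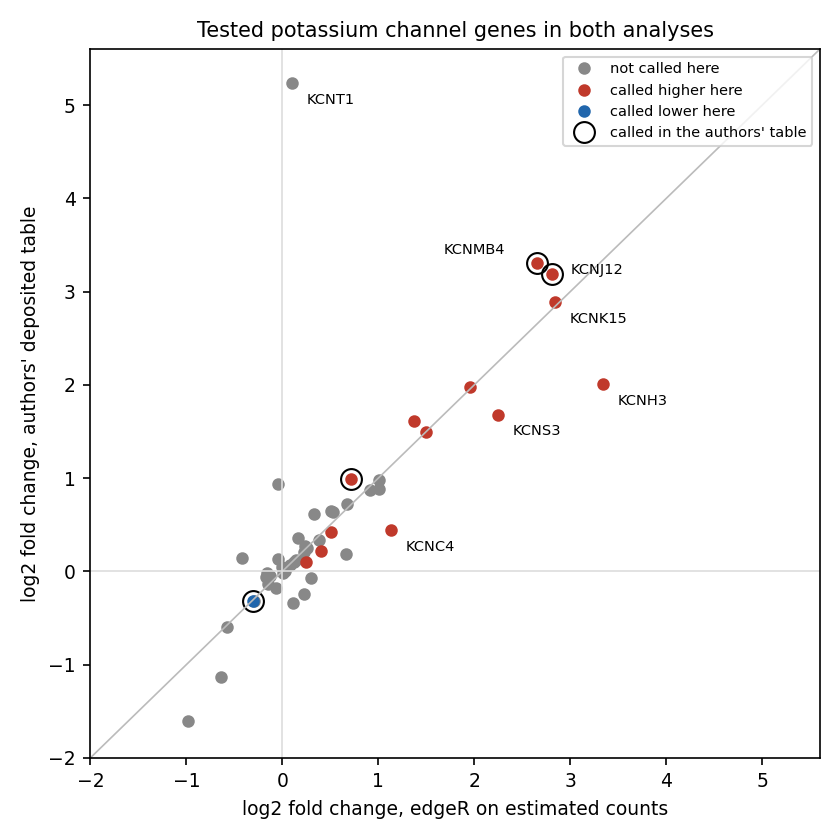
Log2 fold change of the 49 tested genes from edgeR on the estimated counts (horizontal axis) and in the authors' deposited table (vertical axis), with the line of equal values in grey. Circles mark the 4 genes called in both. KCNH3 (3.35 and 2.01) and KCNC4 (1.13 and 0.45) lie under the line, and KCNT1 (0.10 and 5.23) lies far above it.

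Genes that work with potassium channels but carry other names were examined by lists. Beside these stand the shares over all genes tested, 13.3% called higher and 11.4% called lower. The lists were not compared with genes at a like count level. Of 10 partner subunits, 6 were tested and 1 was called higher. This was LRRC26, which lets the large-conductance channel open without raised calcium, and which had 3 and 10 counts in mock and 23 and 37 in JAZF1-SUZ12 libraries (log2 fold change 2.16, adjusted p = 0.012 by edgeR). The LRRC26 call was lost without JAZF1-SUZ12 replicate 2 (adjusted p = 0.0997) and without mock replicate 1 (adjusted p = 0.116), with log2 fold changes of 2.07 and 1.56. Without mock replicate 2 the LRRC26 value was 3.20. AMIGO1, an adhesion protein that joins delayed rectifier channels, had 47 and 41 counts in mock and 70 and 82 in JAZF1-SUZ12 libraries and was not called (edgeR, adjusted p = 0.0515).

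Of 27 potassium pump and cotransporter genes, 17 were tested, 6 were called higher and 2 lower, with a median log2 fold change of 0.19. SLC12A7, a potassium-chloride cotransporter of the kind that shrinks red cells, had 734 and 694 counts in mock and 1043 and 1498 in JAZF1-SUZ12 libraries (log2 fold change 0.81, adjusted p = 4.59e-07 by edgeR). FXYD6, a regulator of the sodium-potassium pump, had 1 and 3 counts in mock and 79 and 82 in JAZF1-SUZ12 libraries, a ratio of 40.3 with a 95% counting interval from 15.4 to 149.7 (edgeR, adjusted p = 2.64e-06).

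Of 18 sodium and pacemaker channel genes, 11 were tested, 4 were called higher and 7 were not called. The median log2 fold change of the 11 was 0.73. It was 0.0032 over all genes tested and 0.41 over those with a mean under 50 counts. HCN2, a pacemaker channel gene, had 285 and 372 counts in mock and 406 and 713 in JAZF1-SUZ12 libraries (log2 fold change 0.73, adjusted p = 0.000377 by edgeR). Of 10 genes for chloride, volume and mechanically gated channels of red cells, 9 were tested, 2 were called higher and 1 lower, with a median of -0.014. LRRC8D and LRRC8B, both subunits of the volume-regulated anion channel, had log2 fold changes of 0.65 and -0.23 (edgeR, adjusted p = 1.64e-05 and 0.0162), and LRRC8E had 0.36 (edgeR, adjusted p = 0.0478). LRRC8B and LRRC8E did not pass with DESeq2 (adjusted p = 0.0908 and 0.193) or without JAZF1-SUZ12 replicate 2 (adjusted p = 0.107 and 0.0633), and LRRC8E also missed the threshold without JAZF1-SUZ12 replicate 1 (adjusted p = 0.155) or mock replicate 2 (adjusted p = 0.261).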

How the data were processed

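Per the labels' protocols, K562 RNA was poly(A)-selected and made into directional libraries, 2 per group. The authors deposited estimated counts per gene as raw counts. Per the submitters' processing notes, fastp 0.20.1, FastQC 0.11.7, MultiQC 1.5, kallisto 0.46.2, DESeq2 1.30.1 and hg38 were used, with no roles given. The annotation and whether strand was used in counting are not given in the sources used here, so genes that overlap on opposite strands are less certain. Between 29.9% and 33.6% of values per library were not whole, to a tolerance of 1e-06. In the authors' deposited comparison table, the mean signal per gene is a mean of depth-normalized counts, per the file headers. Its log2 fold change and standard error, its test score and its p-value and adjusted p-value are the authors' own, per the file headers.

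Counts were rounded to whole numbers, since the design had assumed counts. Genes passing edgeR's filterByExpr (14750) were scaled by TMM and tested with edgeR 4.0.16 in R 4.3.3 (quasi-likelihood F test, two-sided, group as the only term), with Benjamini-Hochberg adjustment over all genes tested and a threshold of 0.05. A gene is called where it passes. CPM is the rounded count per 1000000 counts of its library. The standard error is the log2 fold change divided by the square root of F. Positions and transcript lengths are from GENCODE 29 on GRCh38, which matched all 95 genes. Exact binomial 95% intervals cover counting error only, and not the choice of genes by the same counts. The floor of 3 counts per library stands in for a mock level of 0. The test was checked on simulated counts.

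The members and lists were chosen with earlier results of these data known. The rule for named genes covers JAZF1, SUZ12, every called member, the member of highest mean count in each class, members at the floor in one group only, members called differently in the authors' table, and the 3 smallest p-values among the called genes of each related list. Values of some genes counted in the totals are not reported here. Other tested members are given where their values bear on a partner, and were chosen after their values were seen. Alternatives were DESeq2 size factors or total counts for TMM, DESeq2 1.42.0 or limma-voom (limma 3.58.1) for edgeR, other filters, stricter thresholds, leaving out each library and a block for the replicate number.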

Additional observations from a re-analysis of the deposited data

How the results depend on the processing

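The whole table was refitted under each alternative, and 21 channel genes, which include every called gene, were followed one by one. Of these, 0 changed direction under the alternatives that gave them a value. The 21 were named largely from their values in these same data, so a stable direction is weak support. KCNG4, which was not among them, had 0.011 as reported and -0.0029 without a filter. Of all genes, 3643 were called; requiring at least 2-fold left 837, a threshold of 0.01 left 2045, and DESeq2 called 2407. The number of channel genes called higher, 13, ranged from 9 with DESeq2 to 15 without a filter. DESeq2 kept 9 of the 13, and KCNAB1, KCNAB2 and KCNK15 were among those lost. Genes gained without a filter included KCNIP3. The 1 channel gene called lower became 2 with DESeq2 size factors, DESeq2 or limma-voom, which added KCNH2, and 3 without a filter, which also added KCNMB3. It became 0 when a 2-fold change was required (edgeR; 5 tested members with values below 0 had an unadjusted p under 0.05). The median of the tested channel genes, 0.23, was 0.40 without a filter, where more genes with few counts entered. Over all genes the median without a filter was 0.027. The cause of these changes was not tested.

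Each fit that left out a library assumed that the lone library of a group varies like the other group. Over these fits, the genes called ranged from 2568 to 3782, the channel genes called higher from 10 to 14, those called lower from 1 to 3 (3 without JAZF1-SUZ12 replicate 2, which added KCNAB3 and KCNMB3, and 3 without mock replicate 1, which added KCNH2 and KCNMB3), and the channel median from 0.17 to 0.42. A replicate block gave 4061 calls over all genes, with 13 channel genes higher and a median of 0.25, and 3 were lower, KCNH2, KCNK5 and KCNMB3. Same-numbered libraries did not deviate together (correlation -0.00072 over 14750 genes). The labels state no pairing, and a correlation from 2 libraries per group cannot decide whether same-numbered libraries were handled together. Depth limits most results: 25 of the 49 tested channel genes had a mean under 50 counts.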

Other observations

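Tested genes lying near called channel genes were counted. Within 500000 bases of KCNMB4, 3 genes were tested, and 2 of these, PTPRB and PTPRR, were called higher, by 1.147 and 0.92 on the log2 scale (adjusted p = 9.86e-05 and 9.91e-05 by edgeR), while CNOT2, 11283 bases away, had -0.038 (adjusted p = 0.706). Around KCNH3, 5 of 23 tested neighbours were called higher and 1 lower, and around KCNN1, 2 of 31 were higher and 8 lower. Around KCNK5, 1 of 5 was called higher, DNAH8, at 0.61 (edgeR, adjusted p = 0.00176). Near most other called channel genes more neighbours were called higher than lower. For KCNAB1, KCNJ12 and KCNK15, 2 were higher and 0 lower, of 8, 9 and 11 tested. For KCNJ11, 3 of 8 were higher and 1 lower, and for KCNC4, 1 of 7 was higher and 0 lower. For KCNG1, 1 of 8 was higher and 1 lower. For KCNAB2, 5 of 15 neighbours were higher and 0 lower. For KCNJ4, 2 of 23 were higher and 3 lower, and for KCNS3, 0 of 3 were higher and 1 lower. The background shares were 13.3% higher and 11.4% lower. Whether neighbours were called more often than other genes was not tested. These neighbours were looked at after their values were seen.

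The mean that the authors' deposited table gives for KCNT1 was 94.98, whereas the depth-scaled mean of the deposited counts was 14.2, a ratio of 6.71. Over 14579 genes with a mean of at least 10 in either source, 14 differed by over 2-fold, and KCNT1 was the only one of 48 channel genes to do so. The cause was not tested.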
